A study of Mus musculus with 11 samples.

Results

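The regions described here were the accessible chromatin regions that covered the start of a protein-coding gene whose promoter was poor in CpG dinucleotides. A promoter was called CpG-poor when the 1 kb centred on the gene start had a GC content below 55% or a ratio of observed over expected CpG (the CpG ratio) below 0.6. Of 94963 regions in the list, 3821 met this rule, and they covered the starts of 4046 genes, here called members. The assay was ATAC-seq, in which Tn5 transposase cuts open DNA, and the cells were MPC2, 1 clone of conditionally immortalised mouse mesenchymal progenitors. The 11 cultures were undifferentiated cells (MSCs) with vehicle (3 cultures) or with FG-4592 (3), and osteocytes after 3 weeks of differentiation with vehicle (2) or with FG-4592 (3). FG-4592 (50 uM, 48 h) blocks the prolyl hydroxylases that mark HIF for degradation and so mimics hypoxia. The list pooled all cultures and gave 1 level per region, taken as the mean log2 CPM of cuts. Neither MSCs and osteocytes nor vehicle and drug could be set apart, no value had a replicate error, and the depth of each culture was unknown. Intervals on shares are 95% Wilson intervals, which cover counting error only, and no test was run on shares or levels.

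Vertebrate promoters fall broadly into CpG islands, which are mostly unmethylated and serve widely expressed genes, and CpG-poor promoters, which are often methylated where the gene is silent. CpG-poor promoters are typical of genes used by few tissues, such as those for matrix proteins, hormones and receptors. Some start at a fixed distance from a TATA box, the element bound by the TATA-binding protein, and others depend on sites for factors of a cell lineage or a signal.

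The sequences below are the 100 bases that precede the annotated start, in the direction of transcription, in mm10. Among member genes of the bone and collagen lists and in the 10 regions of highest level, 2 had the letters TATAAA within 40 to 20 bases before the start, and both encode osteocalcin, a protein of mineralised matrix. The capitals mark that box, whose first base lay 29 bases before the start in each. The pair differed at 3 of 100 bases, and only 48.7% (Bglap2) and 65.5% (Bglap) of the 50-base words around these starts occurred once in the assembly, so reads may have been split or lost between these copies.
Bglap2, chr3:88378700-88378799, minus strand: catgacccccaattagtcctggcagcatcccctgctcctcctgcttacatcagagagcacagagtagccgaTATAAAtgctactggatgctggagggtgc
Bglap, chr3:88384465-88384564, minus strand: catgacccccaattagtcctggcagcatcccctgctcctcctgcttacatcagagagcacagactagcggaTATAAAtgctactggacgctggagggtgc

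Fgf23, the phosphate-regulating hormone at the centre of the study, is shown next. None of the 14 motifs searched was found in these 100 bases, which says only that those letters were not in this window.
Fgf23, chr6:127072802-127072901, plus strand: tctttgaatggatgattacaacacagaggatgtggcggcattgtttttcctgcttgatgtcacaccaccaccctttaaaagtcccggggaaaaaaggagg

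Members of the interferon-induced list are shown for the ISRE, searched as GAAA, 2 bases of any kind and GAAA on both strands, the element bound by interferon-activated factors. The capitals mark each match, and in Gbp3 the marked run holds 2 overlapping matches.
Ifi27, chr12:103434111-103434210, plus strand: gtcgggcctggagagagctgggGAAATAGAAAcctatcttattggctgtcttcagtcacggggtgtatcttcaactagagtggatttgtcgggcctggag
Usp18, chr6:121245806-121245905, plus strand: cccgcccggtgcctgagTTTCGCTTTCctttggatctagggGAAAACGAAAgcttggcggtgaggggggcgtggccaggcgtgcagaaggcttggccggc
Gbp3, chr3:142559926-142560025, plus strand: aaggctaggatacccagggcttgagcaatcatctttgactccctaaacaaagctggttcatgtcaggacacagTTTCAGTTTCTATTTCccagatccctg

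Actg2, an actin of smooth muscle, is shown for the CArG box, the site of serum response factor, and held 2 of them. Ticam1, an adaptor of Toll-like receptor signalling, and Zkscan5, a zinc finger protein, are shown for CCGGAAG, a site of ETS factors, as members low in both GC and CpG ratio.
Actg2, chr6:83536266-83536365, minus strand: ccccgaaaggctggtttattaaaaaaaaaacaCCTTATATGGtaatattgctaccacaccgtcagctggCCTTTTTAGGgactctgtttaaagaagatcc
Ticam1, chr17:56276787-56276886, minus strand: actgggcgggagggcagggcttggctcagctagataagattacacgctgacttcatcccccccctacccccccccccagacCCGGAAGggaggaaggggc
Zkscan5, chr5:145204462-145204561, plus strand: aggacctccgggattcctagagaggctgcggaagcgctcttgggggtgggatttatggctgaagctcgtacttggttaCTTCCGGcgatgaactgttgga

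A region lay over 4046 of 13515 CpG-poor coding starts (29.9%, 29.2 to 30.7), against 7225 of 8423 CpG-rich starts (85.8%, 85.01 to 86.5) and 51.4% of all 21938 coding starts. The rule joined 3 kinds of promoter that differed widely. Of starts low in both GC and CpG ratio, 1533 of 9479 had a region (16.2%, 15.4 to 16.9). Starts low in CpG ratio only had one in 1169 of 2388 cases (49.0%, 46.95 to 50.96). Starts low in GC only, whose median CpG ratio was 0.71, had one in 1344 of 1648 cases (81.6%, 79.6 to 83.4), a share close to that of CpG-rich starts. Members low in GC only thus made up 1344 of the 4046, and the promoters poor in both measures, the largest kind among all CpG-poor starts, made up 1533.

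The share with a region rose at each step of the CpG ratio up to 0.9. It was 3.21% (57 of 1774) below a ratio of 0.1, 13.4% between 0.2 and 0.3, 42.6% between 0.4 and 0.5, and 65.5% between 0.5 and 0.6. Beyond the limit it went on to 77.1% between 0.6 and 0.7 and 90.3% between 0.8 and 0.9. At a like CpG ratio the starts with GC below 55% had the lower share in each bin from 0.1 to 0.5, with intervals that did not overlap. Between 0.1 and 0.2 it was 6.60% against 22.6% of the others, and between 0.2 and 0.3 it was 12.01% against 23.5%. Between 0.4 and 0.5, 38.7% (35.5 to 42.0) of starts with GC below 55% and 48.5% (44.3 to 52.6) of the others had a region. Above a ratio of 0.6 the intervals of both GC groups overlapped in every bin.

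**Figure D1:**
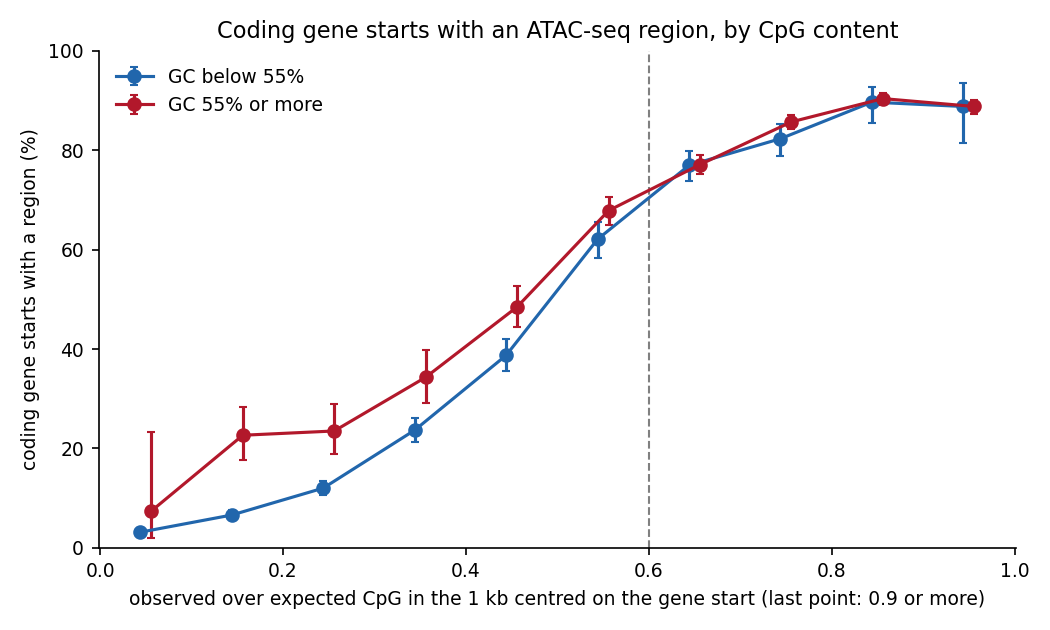
Share of coding gene starts with a region (%) against the CpG ratio of the 1 kb around the start, for starts with GC below 55% and with 55% or more. Points are bins of 0.1 (the last holds 0.9 and above), bars are 95% Wilson intervals and the dashed line is the limit of 0.6; the share climbs from 3.15% to 89.7% in the lower GC group, with no break at the limit.

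Just inside and just outside the limits the shares were close, and the levels differed more across the limit of CpG ratio. With GC of 55% or more, 71.1% of starts with a CpG ratio of 0.55 to 0.6 and 72.1% of those with 0.6 to 0.65 had a region, at median levels of 4.85 and 5.20. With a CpG ratio of 0.6 or more, 84.95% of starts with GC of 53 to 55% and 85.5% of those with 55 to 57% had one, at median levels of 5.07 and 5.21.

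The 3821 member regions spanned levels from -0.06 to 7.82 log2 CPM, with a median of 4.51 and quartiles of 3.36 and 5.25. The median of all regions in the list was 2.12, and 87.7% of all regions lay below the median of the members. Member regions were 4.02% of the list and held 10.5% of its summed CPM. By kind, the median level was 3.97 for members low in both measures, 4.61 for those low in CpG ratio only and 4.89 for those low in GC only, and the lower quartiles were 2.59, 3.12 and 4.30. CpG-rich starts with a region had a median level of 5.40.

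Level and width went together. The median width was 1002 bp for members and 1244 bp for CpG-rich starts with a region, and across member regions width and level had a Spearman rho of 0.76, a description over regions that share the same libraries. The median level of members differed from that of CpG-rich regions by -0.89. Within 20 bins of width the weighted difference was -0.29, with members lower in 20 of 20 bins and differences from -0.49 to -0.03. Per kb of width, the medians were 4.45 and 5.03.

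**Figure D2:**
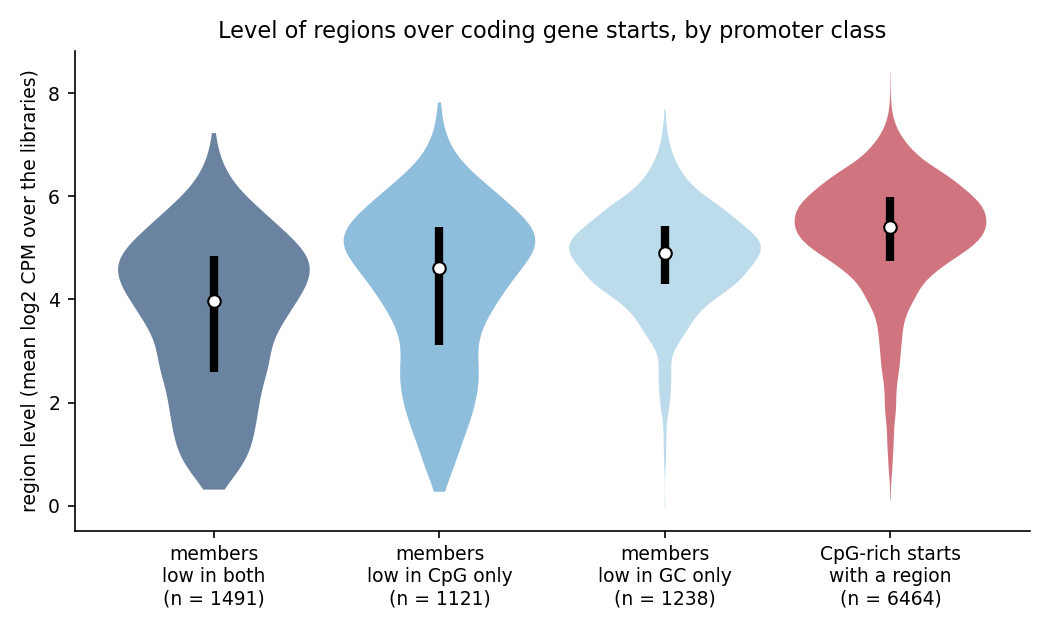
Level (mean log2 CPM) of regions over coding gene starts, for members of 3 kinds and for CpG-rich starts. Violins show all regions of a kind, black bars the quartiles and white points the medians, which step from 3.97 through 4.61 and 4.89 to 5.40.

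Some members shared their region with a neighbour or with a second start. In 569 of 4046 members (14.1%) the region also covered a CpG-rich start of a coding transcript, of the same or another gene, and the median level over these members was 5.38 against 4.38 over the others. This share was 5.68% among members low in both measures and 22.8% among those low in GC only. A coding gene that started in the opposite direction within 1 kb was found for 7.56% of members and 1.15% of CpG-poor starts without a region. Most regions held a single member, 215 held 2 and 5 held 3. The midpoint of the region lay downstream of the start by a median of 88.5 bp in members (quartiles -37 and 239) and 99.5 bp in CpG-rich starts.

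The 10 member regions of highest level ran from 7.24 to 7.82. Aco1, the cytosolic aconitase that also serves as an iron regulatory protein, led with 7.82 (chr4:40142709-40144036). Cdca3, a cell division gene, and Usp5, a deubiquitinating enzyme, start in opposite directions and shared a region at 7.69. Garnl3 followed at 7.61. Dazap1, an RNA-binding protein, and Gamt, an enzyme of creatine synthesis, shared a region at 7.51. Next came Cblb, a ubiquitin ligase, at 7.41, Egr1, an immediate-early transcription factor, at 7.39, and Bhlhe40, a basic helix-loop-helix repressor, at 7.33. Slc35f5 (7.32), Ttc9c (7.26) and Mboat7, an acyltransferase of phospholipids (7.24), completed the 10 highest regions. None of these starts was low in both measures, and in Garnl3, Cblb, Egr1, Slc35f5, Ttc9c and Mboat7 the region also covered a CpG-rich coding transcript start.

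The lowest were Mterf1b at -0.06, AB124611 at 0.27, Rps6kl1 at 0.28, the protocadherin Pcdhb9 at 0.31 and Smco1 at 0.39. Their regions were 200 to 322 bp wide. At Mterf1b only 30.2% of the 50-base words around the start occurred once in the assembly, so its level is uncertain.

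Below a CpG ratio of 0.2, 307 of 4991 starts had a region (6.15%), at a median level of 2.78. Those of highest level, named here after their values were seen, were Ssc5d at 6.37, Tkt, an enzyme of the pentose phosphate pathway, at 6.26, and Plin4, a lipid droplet protein, at 6.21. Ifi204 (5.89) and Ifi211 (5.75), interferon-inducible genes of 1 family with 69.9% and 75.5% unique words, which leaves their levels uncertain, came next beside Fcgrt, the neonatal Fc receptor, at 5.77. Emilin1, an elastic fibre glycoprotein (5.68), Dmpk, a kinase known from muscle (5.64), Ang2, a ribonuclease of the angiogenin family (5.60), Podnl1, a leucine-rich proteoglycan (5.50), and S100a4, a calcium-binding protein of mesenchymal cells (5.42), followed. The region at Tkt was centred 706.5 bp downstream of the start, and those at Ssc5d and Ang2 630 bp and 836.5 bp upstream.

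Of 24 CpG-poor genes in a list for bone matrix and mineralising cells, 9 had a region over the start (37.5%, 21.2 to 57.3, against 29.9% of all CpG-poor starts). The highest was Runx2, the master transcription factor of osteoblasts, at 5.05 (chr17:44814103-44815473). Col1a1, the main chain of type I collagen, had 4.35, and Sp7 (osterix), a factor downstream of Runx2, had 4.06. The osteocalcin genes Bglap2 and Bglap, shown above with their TATA boxes, had 3.91 and 3.74. Spp1 (osteopontin) had 3.89 and Omd (osteomodulin) 3.65. Fgf23 had a level of 2.89 in a region of 679 bp (chr6:127072540-127073218), and Ibsp (bone sialoprotein) had the lowest, 2.48. Apart from Runx2, these 9 regions lay below the median of all members.

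The other 15 bone genes had no region over the start. In several a region stopped short of it: the nearest lay 25 bp from the start of Dmp1, a matrix protein of osteocytes, 200 bp from Bglap3, 275 bp from Col1a2, the second chain of type I collagen, 569 bp from Sparc and 897 bp from Tnfsf11, the osteoclast differentiation factor. It lay 1316 bp from Ifitm5, 1356 bp from Pth1r, the receptor of parathyroid hormone, 1817 bp from Sost, the Wnt inhibitor of osteocytes, and 3071 bp from Mepe. Dkk1, Dspp, Ostn, Pdpn and Phex, the endopeptidase mutated in hypophosphataemia, had none closer than 4675 bp, with 39254 bp at Phex.

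Shares of other connective tissue lists are set against the same 29.9%. Among collagen chains 17 of 33 had a region (51.5%, 35.2 to 67.5), with levels from 1.67 to 5.17. Col8a1 (5.17), Col6a2 (5.14), Col5a2 (5.11) and Col16a1 (5.02) led, while Col3a1, the chain of type III collagen, had 2.29. Among small leucine-rich proteoglycans 6 of 16 had one (37.5%, 18.5 to 61.4, which holds 29.9%), from Podnl1 (5.50), Prelp (4.34) and Omd (3.65) down to Ogn (3.08), Bgn (2.42) and Dcn (1.31). Among matrix metalloproteinases it was 5 of 17 (29.4%, 13.3 to 53.1), close to the share of all CpG-poor starts, led by Mmp28 (4.83) and Mmp2 (3.92), with the collagenase Mmp13 at 0.87. Contractile and cytoskeletal genes of smooth muscle had 9 of 12 (75%, 46.8 to 91.1). Tpm2 (5.87), a tropomyosin, Acta2 (5.28), smooth muscle actin, Cald1 (4.82), a caldesmon, and Myl9 (4.35), a myosin light chain, were the highest. Striated muscle genes had 2 of 28 (7.14%, 1.98 to 22.6), Tnni1 at 3.47 and Acta1 at 0.83. Of these 28 starts 22 were low in both measures, the kind whose own share was 16.2%, which the interval holds. The striated muscle share was 21.4% (6 of 28) with a region within 500 bp and 20.7% with any coding transcript start. All CpG-poor starts had 35.9% and 28.9% under these settings.

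For genes of defence and signalling the shares are set against 29.9% of all CpG-poor starts and 16.2% of those low in both measures, which most starts of each list were. Interferon-induced genes had a region at 15 of 25 starts (60%, 40.7 to 76.6), led by Irgm1 (5.41), Ifi27 (4.78), Xaf1 (4.76) and Ifit2 (4.74). The antiviral genes Rsad2 (1.83) and Isg15 (1.75) closed that list. Chemokines had 8 of 34 (23.5%, 12.4 to 39.996), with Cxcl1 (5.08), Ccl2 (4.78), Ccl27a (4.59) and Cx3cl1 (4.22) highest. At Ccl27a, which has near copies, 49.0% of words were unique. Interleukins, with a few receptors caught by the name, had 7 of 36 (19.4%, 9.75 to 35.03), with Il7 (4.77), Il6 (4.35), Il17b (4.04) and Il15 (3.82) highest. Serpins had 13 of 60 (21.7%, 13.1 to 33.6). The intervals of the chemokines, interleukins and serpins held both shares. Serpini1 led with 6.79 in a region that also covered a CpG-rich coding transcript start, while Serpinf1 had 4.90 and Serpinh1, the collagen chaperone, 4.84. S100 proteins had 9 of 16 (56.2%, 33.2 to 76.9), with S100a10 (6.18), S100a11 (5.65), S100a4 (5.42) and S100a6 (5.36) highest.

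Genes that answer to HIF had a region at 10 of 15 CpG-poor starts (66.7%, 41.7 to 84.8, against 29.9% of all CpG-poor starts), where the 15 include 2 genes annotated as Aldoa. Lox, which cross-links collagen, had 6.38, Epo, the gene of erythropoietin, 5.43, and Angptl4 5.02. The region at Epo also covered a CpG-rich coding transcript start. All 15 HIF targets with CpG-rich starts had a region, where 85.8% of all CpG-rich starts had one. Adipocyte genes had 8 of 14 (57.1%, 32.6 to 78.6), with Plin4 (6.21), Lpl (5.67), Pnpla2 (5.32) and Slc2a4 (4.30) highest, and the adipokine gene Adipoq at 2.96. The region at Pnpla2 also covered a CpG-rich coding transcript start. Cartilage genes had 3 of 13 (23.1%, 8.18 to 50.3, which holds 29.9%): Matn3 at 4.28, Col11a2 at 3.76 and Snorc at 0.61.

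Lists of other tissues had shares below the 29.9% of all CpG-poor starts, but most of their starts were low in both measures, the kind whose own share was 16.2%. Blood cell genes had 2 of 24 (8.33%, 2.32 to 25.8), Lyz2 at 2.77 and Adgre1 at 1.35, and 23 of the 24 were low in both. With a region within 500 bp the blood share was 5 of 24 (20.8%), where all CpG-poor starts had 35.9%. Endothelial genes had 2 of 13 (15.4%, 4.33 to 42.2), Eng at 3.63 and Cldn5 at 1.69. Liver genes had 3 of 25 (12.0%, 4.17 to 29.96), Hp at 4.77, Orm1 at 3.86 and Trf at 2.38, with 21 of 25 low in both. The intervals of the endothelial and liver lists held 29.9%, and those of all 3 lists held 16.2%. Keratins had 5 of 53 (9.43%, 4.10 to 20.3), led by Krt80 (4.06), and keratin-associated proteins 5 of 57 (8.77%, 3.81 to 18.9), led by Krtap1-5 (4.46). Within 500 bp these shares were 18.9% and 19.3%, against the same 35.9%. Cytochromes P450 had 9 of 91 (9.89%, 5.29 to 17.7), with 83 of 91 low in both, and Cyp1b1 (5.40), Cyp4f17 (4.91), Cyp4f16 (4.85) and Cyp4f13 (4.76) were highest. Taste receptors had 1 of 38, Tas1r1 at 1.44. Olfactory receptors had 9 of 1135 (0.79%, 0.42 to 1.5), with Olfr552 (4.14), Olfr156 (3.90), Olfr556 (2.44) and Olfr49 (2.171) highest. No region covered a start of the prolactin family (0 of 26), the defensins (0 of 64) or the CpG-poor vomeronasal receptors (0 of 326).

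Part of these families sits in repeated sequence, and its part in the missing regions was not tested beyond the counts given here. Only 150 of 326 vomeronasal, 32 of 64 defensin and 18 of 26 prolactin family starts had at least 90% of 50-base words found once in the assembly, and none of those had a region. Of 938 olfactory receptor starts that met the same limit, 7 had one (0.75%). Over all CpG-poor starts that met it, the share with a region was 34.8%.

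**Figure D3:**
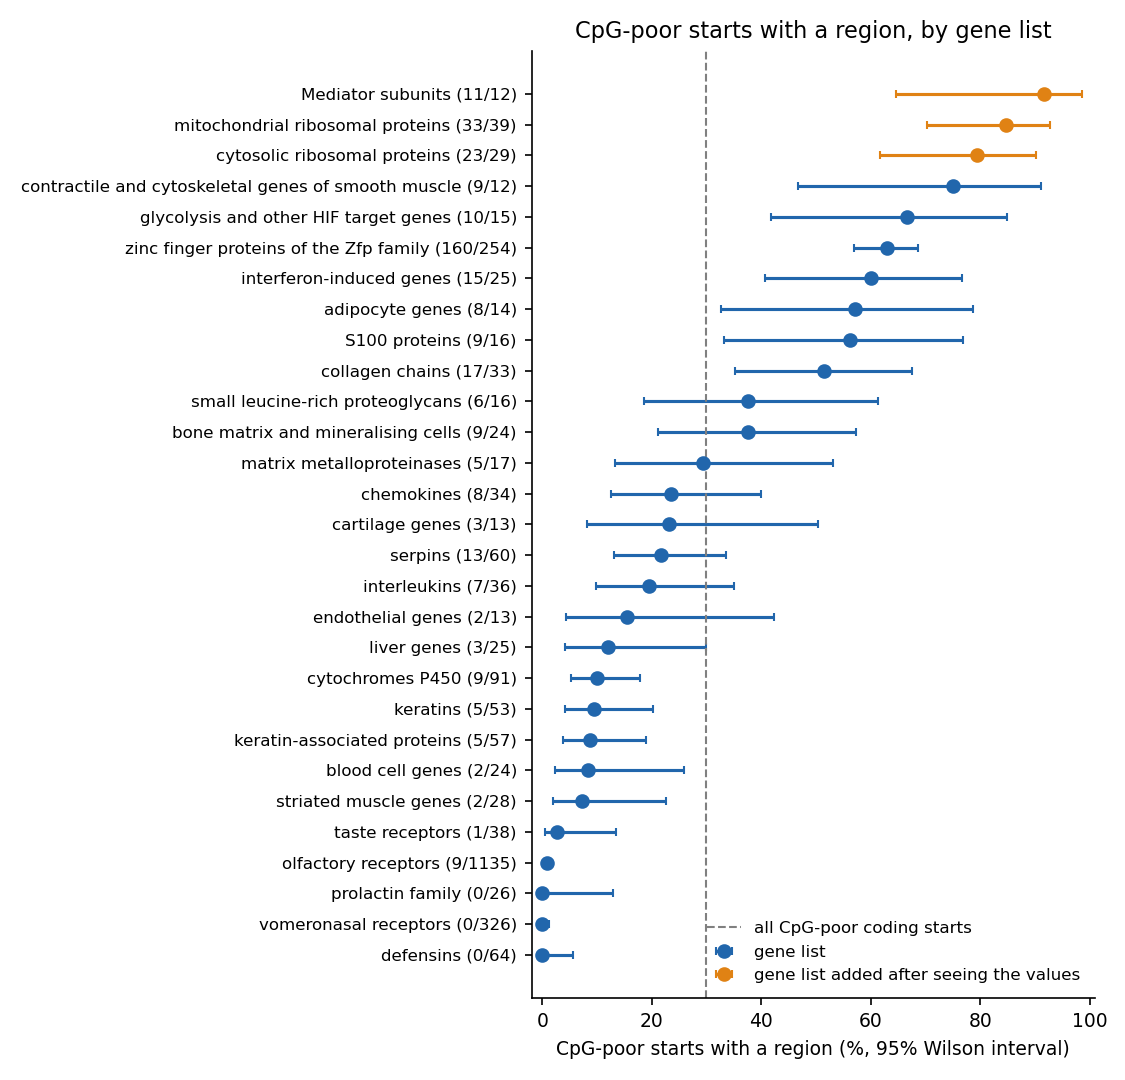
Share of CpG-poor starts with a region (%) in 26 gene lists and 3 lists added after the values were seen. Points are shares, bars 95% Wilson intervals, counts stand in parentheses and the dashed line marks the 29.9% of all CpG-poor starts; smooth muscle (75%) and HIF target genes (66.7%) lie above it and sensory receptors close to 0.

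Families of general cell function are set against 29.9% of all CpG-poor starts, and against 81.6% of starts low in GC only, 49.0% of those low in CpG ratio only and 16.2% of those low in both. Mitochondrial ribosomal proteins had a region at 33 of 39 CpG-poor starts (84.6%, 70.3 to 92.8), cytosolic ribosomal proteins at 23 of 29 (79.3%, 61.6 to 90.2) and Mediator subunits, which link transcription factors to RNA polymerase, at 11 of 12 (91.7%, 64.6 to 98.5). These 3 lists were chosen after their values were seen, for their high shares. Other families, grouped by the start of their symbols, ran from lower to higher shares. The Polr subunits of RNA polymerases had 10 of 10 (100%), and the Ddx helicases and the Vps sorting proteins 9 of 11 each (81.8%). Shares were lower, at 10 of 25 (40%) for the Usp deubiquitinating enzymes, 7 of 15 (46.7%) for the Rbm RNA-binding proteins, 7 of 14 (50%) for the Atp6v proton pump subunits and 8 of 15 (53.3%) for the Cox genes. Few starts of the 3 lists were low in both measures: 6, 7 and 3. Their shares were not adjusted for this make-up, and all 3 intervals held 81.6%. The highest were Mrpl39 (6.25) and Mrps14 (6.20), Rpl41 (6.45), whose region also covered a CpG-rich coding transcript start, and Med19 (6.21). Zinc finger proteins of the Zfp family, a large family of DNA-binding repressors, had 160 of 254 (63.0%, 56.9 to 68.7), with Zfp788 (6.94), Zfp219 (6.70), Zfp524 (6.48) and Zfp386 (6.40) highest. In 12 of the 160, Zfp219 among them, the region also covered a CpG-rich coding transcript start. Most of these Zfp starts were low in both measures, 165 of 254, and 87 of those had a region. Genes with provisional symbols had 188 of 1788 (10.5%), against 32.9% for all other symbols.

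**Figure D4:**
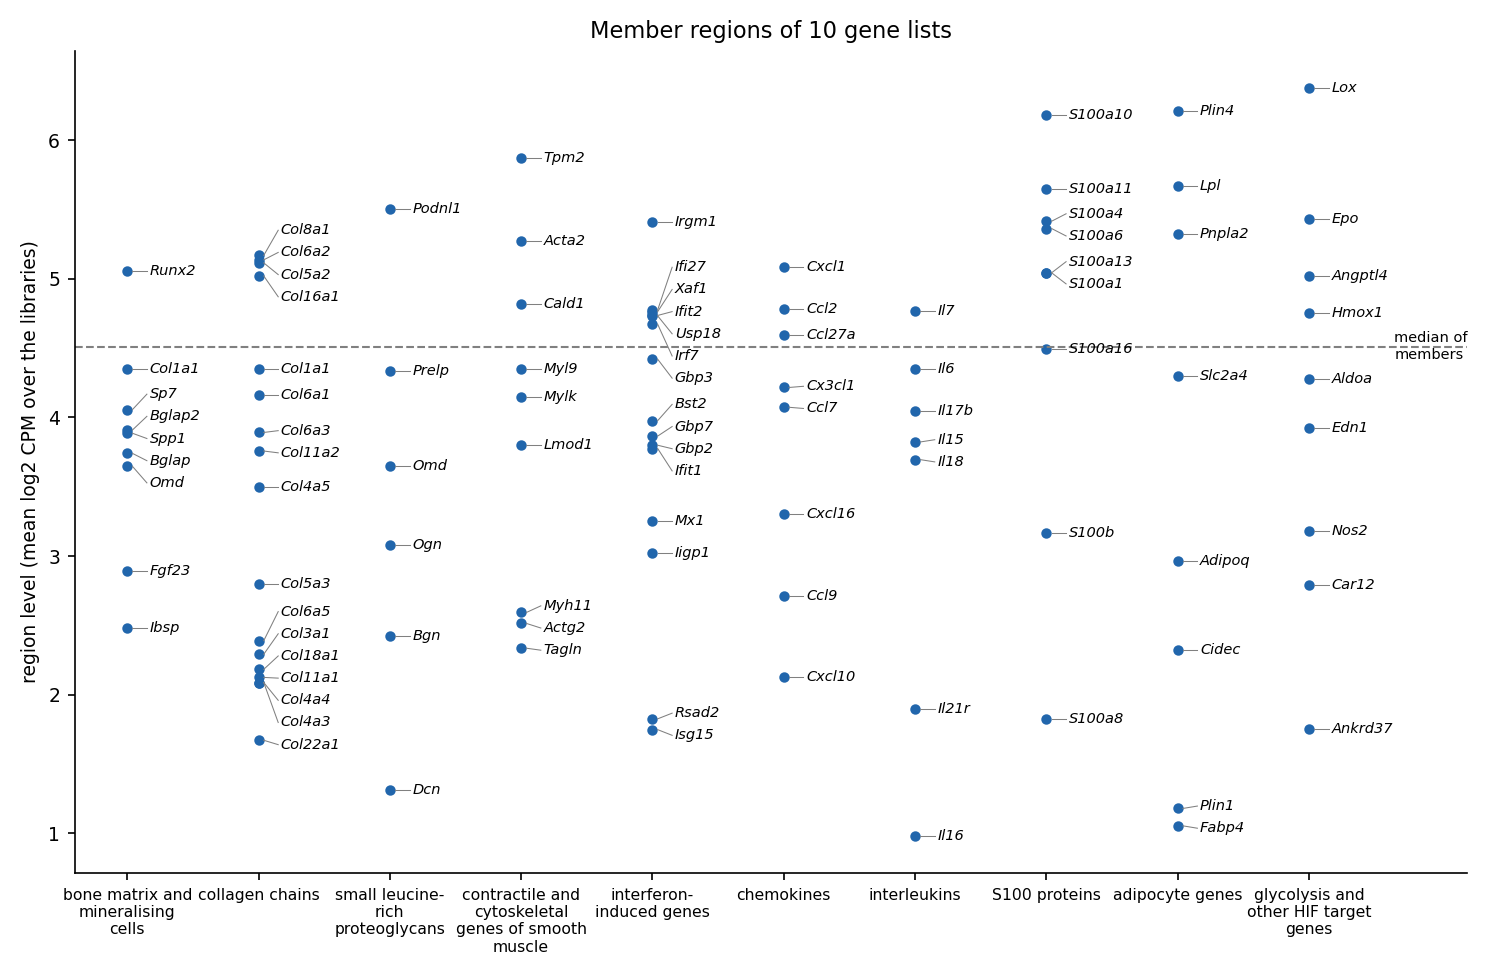
Level (mean log2 CPM) of member regions in 10 gene lists, 1 point per gene with its symbol. The dashed line is the median of all members, 4.51; bone genes other than Runx2 (5.05) lie below it, and collagen chains spread from 1.67 to 5.17.

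Motifs were searched from 250 bases before the start to 50 after it on both strands, except the TATA box, searched as above on the strand of the gene. A TATA box was found at 47 of 4046 members (1.16%, 0.87 to 1.54), at 391 of 9469 CpG-poor starts without a region (4.13%, 3.75 to 4.55) and at 0.61% of CpG-rich starts with a region, with 2.27% of all coding starts as background. Within 9 bins of CpG ratio the difference between members and starts without a region was -1.13 percentage points, with a positive sign in 2 of 9 bins, smaller than the gap between the overall shares. The box was concentrated at its usual place: among members TATAAA began 30 to 21 bases before the start in 0.82 per 100 starts, against 0.15 per 100 at 60 to 51 bases before. The median level of members with the box was 3.71 and of those without it 4.57.

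The GC box (GGGCGG), bound by SP factors, was found in 44.6% of members (43.1 to 46.2), 13.1% of CpG-poor starts without a region and 43.0% of all coding starts. The ETS motif (CCGGAAG) was found in 14.7% (13.6 to 15.8), 2.75% and 10.8%, the CRE core (TGACG), bound by CREB, in 25.7%, 11.5% and 23.1%, and the core of the hypoxia response element (ACGTG), bound by HIF, in 22.7%, 12.8% and 20.5%. Each of these 4 motifs contains a CpG, so their frequency depends on the CpG ratio. Within 9 bins of CpG ratio the difference between members and starts without a region was 15.6 percentage points for the GC box (positive in 9 of 9 bins), 7.93 for the ETS motif (8 of 9) and 4.63 for the CRE core (6 of 9). For the hypoxia response core it was 0.05 (5 of 9). GC content was not held alike within these bins, and its part in the differences was not tested. Among starts low in both measures, the ETS motif was found in 10.2% of members and 2.202% of starts without a region, and the GC box in 29.2% and 8.37%.

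Motifs whose letters do not require a CpG were compared in the same way, though the free bases of the STAT site and the ISRE can hold one. The AP-1 site (TGANTCA) was found in 7.59% of members, 9.91% of starts without a region and 6.91% of all starts, and the RUNX site (ACCACA) in 15.5%, 20.2% and 15.3%. The TEAD site (CATTCC) was found in 14.1%, 16.02% and 13.5%, the CCAAT box of NF-Y in 41.1%, 40.05% and 39.0%, and the STAT site (TTCNNNGAA) in 9.84%, 10.7% and 8.39%. The MEF2 motif was found in 2.67%, 4.64% and 2.85%, and the NF-kB motif in 4.92%, 4.35% and 4.89%. Within bins of CpG ratio the difference between members and starts without a region turned its sign for AP-1 (0.10 percentage points), TEAD (1.45) and STAT (1.39). It came to -1.25 for RUNX, -1.13 for MEF2 and 3.07 for NF-Y. With 500 bases before to 100 after the start the NF-Y difference turned to -2.07. By gene list, an ISRE was found at 10 of 15 interferon-induced members and at 6 of the 10 without a region, against 4.92% of all members and 3.55% of all coding starts. A CArG box was found at 3 of 9 smooth muscle members, Myl9, Actg2 and Tagln, against 1.46% of all members and 1.48% of all starts.

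**Figure D5:**
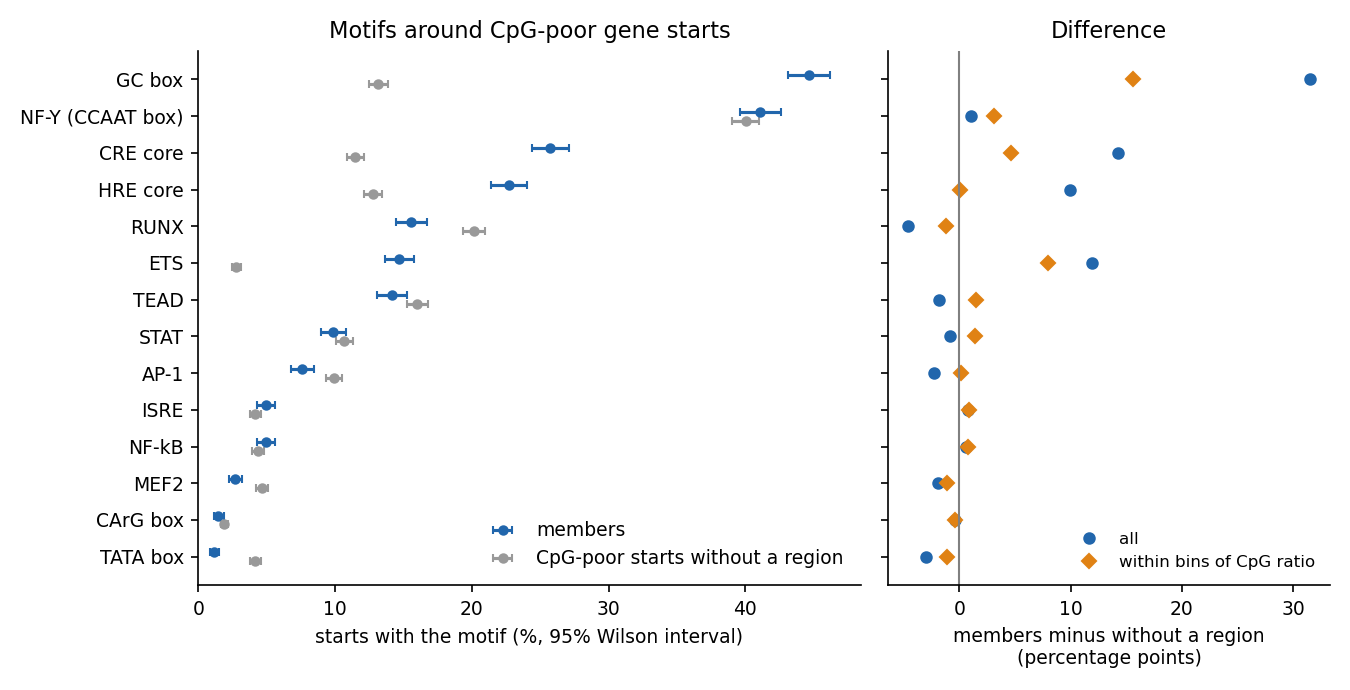
Left, share of CpG-poor starts with each motif (%) among members and among starts without a region, with 95% Wilson intervals. Right, the difference in percentage points over all starts and within bins of CpG ratio, which do not hold GC content alike. Within bins the GC box has 15.6 and the ETS motif 7.93 points, whereas the hypoxia response core drops to 0.05.

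Distal regions were counted around members and around CpG-poor starts without a region. Within 50 kb of the start, counting only regions more than 1000 bp from any transcript start, members had a median of 4 regions (mean 4.77) and starts without a region a median of 2 (mean 2.90), while CpG-rich starts with a region had 5 (mean 5.15). No such region was found around 8.85% of members (8.01 to 9.76) and 37.2% of starts without one (36.2 to 38.2). The gap varied with gene density. Among starts with at most 2 other genes within 50 kb the medians were 4 and 1 and the shares with no such region 11.5% and 41.7%. With 3 to 5 other genes, and again with 6 to 10, the medians were 4 and 2, and the shares were 7.52% and 37.4%, then 7.88% and 33.4%. With 11 or more genes both medians were 3 (means 3.85 and 3.16), and the shares were 5.43% and 15.5%. CpG-poor starts without a region had their nearest region at a median distance of 13.5 kb, and in 806 of 9469 (8.51%) it lay within 500 bp.

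By chromosome, the share of CpG-poor starts with a region ran from 23.1% (chromosome 14) to 38.4% (chromosome 12) on the autosomes, and was 25.8% on chromosome X (200 of 775) and 3 of 182 on chromosome Y. The median level of members on the autosomes ran from 4.31 (chromosome 13) to 4.89 (chromosome 19).

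Marker starts of either CpG class were checked for a region. Over all coding starts 51.4% had one, and over those low in both measures 16.2%. With so few markers, the counts below do not set a cell type. Of 17 mesenchymal and osteogenic markers 10 had a region, with levels from 2.33 to 5.46, and Dmp1, Phex, Mepe, Sost, Pdpn, Pdgfra and Thy1 had none. Of 6 blood markers only Lyz2 had one, at 2.77, and none of 3 endothelial, 3 epithelial and 2 liver markers did. A region lay near but not over the start of the endothelial marker Pecam1 (62 bp) and the blood marker Spi1 (464 bp), as at Dmp1 (25 bp) among the osteogenic ones. Other genes of the endothelial, liver and keratin lists did have a region over the start, as given above for Eng, Cldn5, Hp, Orm1, Trf and Krt80. The list merges peaks called from MSCs and osteocytes, so a marker without a region had none past the filters in either stage. A region that was present could not be assigned to a stage.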

How the data were processed

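Chromatin accessibility was profiled by ATAC-seq in 11 MPC2 cultures, grouped by their titles. The authors trimmed reads with Trim Galore, aligned them to mm10 with Bowtie2, removed duplicates with Picard 2.17.8, and dropped mitochondrial and poorly mapped reads. Peaks were called with MACS2 2.2.7.1 and merged across samples, ENCODE blacklist regions were removed, cuts were counted with pyDNase, regions with few cuts were dropped, and TMM scaling and tests used edgeR 3.24.3. A Tn5 shift was not stated, and 1 library removed by the authors is not analysed here. Merging widens a region with each contributing sample, and dropping regions of few cuts removes faint ones, so a missing region means no region past these filters. The deposited column 5 was read as mean log2 CPM, inferred from its values: 460 fell below 0, and the CPM computed back from it summed to 1012761. The deposited list holds no value per sample, so no comparison between groups was run and depth per sample was unknown.

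Gene starts were the most upstream positions of 21938 coding genes in GENCODE vM21, and sequence was read from GRCm38, the assembly of mm10. A member was a CpG-poor start covered by a region, and medians of level and width counted each region once, within each class. Unique sequence was the share of 50-base words in the 1 kb around a start that occur once in the primary assembly on both strands. Motifs were exact matches, and a match is not a site. The members and lists were chosen with earlier results of these data known. Genes were named by rule: the 10 highest and 5 lowest regions, all bone genes, and up to 4 of highest level per list, with TATA boxes printed for the bone, collagen and highest members. Genes that the rule names but the text does not are not reported here. Names, lists and sequences beyond these were chosen after their values were seen. The alternatives changed the composition window, the criteria, the choice of start, the overlap, the chromosomes, shared regions, width and motif windows. The functions were tested on simulated data. Python 3.11.15, numpy 2.4.6, pandas and scipy were used.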

Additional observations from a re-analysis of the deposited data

How the results depend on the processing

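No value had a replicate, so a result was called moved when it left its 95% interval (shares and medians) or changed by over 1.5 times (counts). The direction of the difference in median level between members and the compared starts held under every alternative run. Where the rule changed, the compared starts were those with a region outside the changed rule. With both criteria, or a CpG ratio below 0.35 alone, these included starts called CpG-poor above. With a 500 bp window for composition, the share with a region was 24.0%, the median level 4.37 and the width 1016 bp. With a 2 kb window there were 6846 member regions, with a share of 43.1%, a level of 4.89, a width of 1070 bp and a difference in level of -0.69. Requiring both criteria left 1491 regions (16.2%, level 3.97, width 908 bp, difference -1.28), and a CpG ratio below 0.35 alone left 790 (9.97%, level 3.19, width 706.5 bp, difference -2.004). With any coding transcript start these were 28.9%, 4.41, 979 bp and -0.96, and with a region within 500 bp 35.9%, 4.34, 958 bp and -1.02. A region within 100 bp gave a share of 31.8%.

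Without regions over a CpG-rich coding gene start the share was 28.7%, the level 4.46 and the width 985 bp. Chosen after seeing the data were the settings on CpG-rich transcript starts, unique words and receptor genes and the bins of CpG ratio. Without regions over a CpG-rich coding transcript start the values were 25.7%, 4.33, 952 bp and -1.07. The share was 34.8% among starts with at least 90% unique 50-base words and 33.5% without olfactory and vomeronasal receptors. Regions at least 500 bp wide had a median level of 4.74, the level per kb was 4.45, and the difference within 20 bins of width was -0.29. The share of members with a TATA box was 1.63% with a window from 50 to 10 bases before the start and 2.175% with TATAA, against 5.58% and 7.23% of CpG-poor starts without a region. Within bins of CpG ratio the TATA box difference was -1.13 percentage points, and the sign turned for AP-1 (0.10 percentage points, from -2.32), TEAD (1.45, from -1.88) and STAT (1.39, from -0.85). With 500 bases before to 100 after the start it turned for NF-Y (-2.07, from 1.06). In that window 9 other differences moved but kept their sign. They were -3.90 for AP-1, -3.47 for TEAD, -2.94 for STAT, -2.97 for MEF2 and 1.70 for NF-kB. The rest were 14.4 for ETS, 35.7 for the GC box, 16.5 for the CRE core and 12.6 for the hypoxia response core. Autosomes only and transcripts of annotation level 1 or 2 moved none of the 5 values recomputed under each. Among the 29 gene lists, the share left its interval for keratin-associated proteins (19.3% within 500 bp) and the Zfp family (72.4% among unique starts). It moved by over 1.5 times within its interval for striated muscle genes (21.4% within 500 bp, 20.7% with any coding transcript start), blood cell genes (20.8% within 500 bp), keratins (18.9%), olfactory receptors (1.32%) and keratin-associated proteins (16.1% among unique starts), and 1 defensin and 1 vomeronasal receptor start had a region within 500 bp. No paired analysis was possible because all cultures were pooled into 1 value per region, and for that reason the comparisons between stages and treatments were not run. The causes of these shifts were not tested. The list gives no depth, so a start without a region was below the filters and not shown to be closed.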
